A study of Mus musculus with 8 samples.

Results

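Transcripts of 8 genes were followed in primary mouse hepatocytes: Gls2, Hal, Uroc1, Amdhd1, Ftcd, Sds, Sdsl and Ctsc. The first 7 encode enzymes that break down glutamine, histidine and serine, and Ctsc encodes a lysosomal peptidase. They were taken by gene name from a table of 34745 genes, all 8 were found there, and all 8 were abundant enough to enter the comparison of 11036 genes. They were chosen by their roles and by their differences in count between the groups below, with earlier results of this comparison known, so the differences of the 8 genes between the groups are given as descriptions, with no p-value. The study compared hepatocytes of mice injected with adeno-associated virus serotype 8 that carried mouse Trib3 (AAV-Trib3, 4 libraries) with those of mice labelled AAV-GFP (4 libraries), a virus whose serotype is not given in the sources used here. All mice were labelled WT; the protocol, the same text for all samples, gives male mice injected at 6 weeks of age and hepatocytes isolated 4 weeks later, and names the Trib3 virus alone. The promoter of the vectors is not given in the sources used here, and vector-borne and endogenous Trib3 transcripts share the gene's counts. Whether each library came from its own mouse is not stated, so the spread between libraries may be partly technical.

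Hepatocytes along the liver lobule differ in their enzymes. Those around the portal vein take up amino acids from the gut and remove their nitrogen, feeding ammonia to the urea cycle and carbon to glucose synthesis, while cells around the central vein make glutamine. Gls2, the liver-type glutaminase of mitochondria, releases ammonia from glutamine. Hal, Uroc1, Amdhd1 and Ftcd carry out the successive steps by which histidine becomes glutamate and gives a carbon unit to tetrahydrofolate. Sds, and by its similarity Sdsl, turn serine into pyruvate and ammonia. Ctsc (cathepsin C, dipeptidyl peptidase 1) removes dipeptides from the ends of proteins, and in leukocytes it activates the serine proteases of granules.

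Depth was alike in both groups, from 13491058 to 15361128 counts per AAV-Trib3 library and from 11350442 to 14247364 per AAV-GFP library. Levels are in CPM, the gene's share of the library's total count after TMM scaling, and values with ± are mean and SD over 4 libraries unless called SE. AAV-GFP replicate 2 stood apart. Its TMM factor was 0.6995, which raises its CPM over unscaled values, against 0.973 to 1.07 in AAV-Trib3 libraries and 1.05 to 1.15 in the other AAV-GFP libraries. Mitochondrially encoded transcripts took 32% of its counts, against 16.3% to 18.5% in AAV-Trib3 libraries and 14.9% to 16.8% in the other AAV-GFP libraries. Trib3 stood at 27.9, 62.6, 67.2 and 20.2 CPM in AAV-Trib3 replicates 1 to 4, against 2.68, 1.10, 2.46 and 3.36 CPM in AAV-GFP replicates 1 to 4, so the groups did not overlap. Its log2 difference was 4.17 ± 0.47 (SE) and its edgeR adjusted p 0.0675, short of the threshold of 0.05, while DESeq2 called it. Of 8 hepatocyte markers, 7 were in the table, and their summed level ran from 79922 to 123080 CPM in AAV-Trib3 and from 82553 to 150420 CPM in AAV-GFP libraries, highest in AAV-Trib3 replicate 3 and AAV-GFP replicate 2. Endothelial markers summed to 41.7 to 65.1 CPM in AAV-Trib3 and 19.0 to 92.3 CPM in AAV-GFP, and T, NK and B cell markers to 0.51 to 1.49 and 0.07 to 1.16 CPM, with Ms4a1 at 0 in all libraries. In bulk RNA, fewer cells of a type and less RNA per cell cannot be told apart.

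All 8 genes had a higher mean level with AAV-Trib3 than with AAV-GFP, by log2 differences between 0.08 and 0.85. Their median log2 difference was 0.58, beside −0.01 over all 11036 genes, of which 47.9% had a difference above 0. The difference was largest for Ctsc, Gls2 and Sds and smallest for Ftcd and Amdhd1. The groups did not overlap for 1 of the 8, Gls2, beside 2.29% of all genes tested whose groups did not overlap and 1.21% that did so with AAV-Trib3 higher. In edgeR's quasi-likelihood test of all genes, 0% had a Benjamini-Hochberg adjusted p under 0.05 and 3.14% had an unadjusted p under 0.05, 1.36% higher and 1.78% lower with AAV-Trib3. DESeq2 called 17 genes, Trib3 and 1 of the 8, Gls2, among them, and limma-voom 0; the call of Gls2 is no support, since it was chosen on this contrast.

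Much of the height lay in AAV-Trib3 replicate 3. That library was the highest of its group for Gls2, Hal, Uroc1, Amdhd1, Ftcd and Sds, and the highest of all 8 libraries for 5 of these, Ftcd being the exception. The summed level of the 8 genes was 1089.6, 1219.9, 1956 and 1241 CPM in AAV-Trib3 replicates 1 to 4, against 907, 1121, 957 and 1088.5 CPM in AAV-GFP replicates 1 to 4. Without AAV-Trib3 replicate 3 the median log2 difference of the 8 genes was 0.30.

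**Figure D1:**
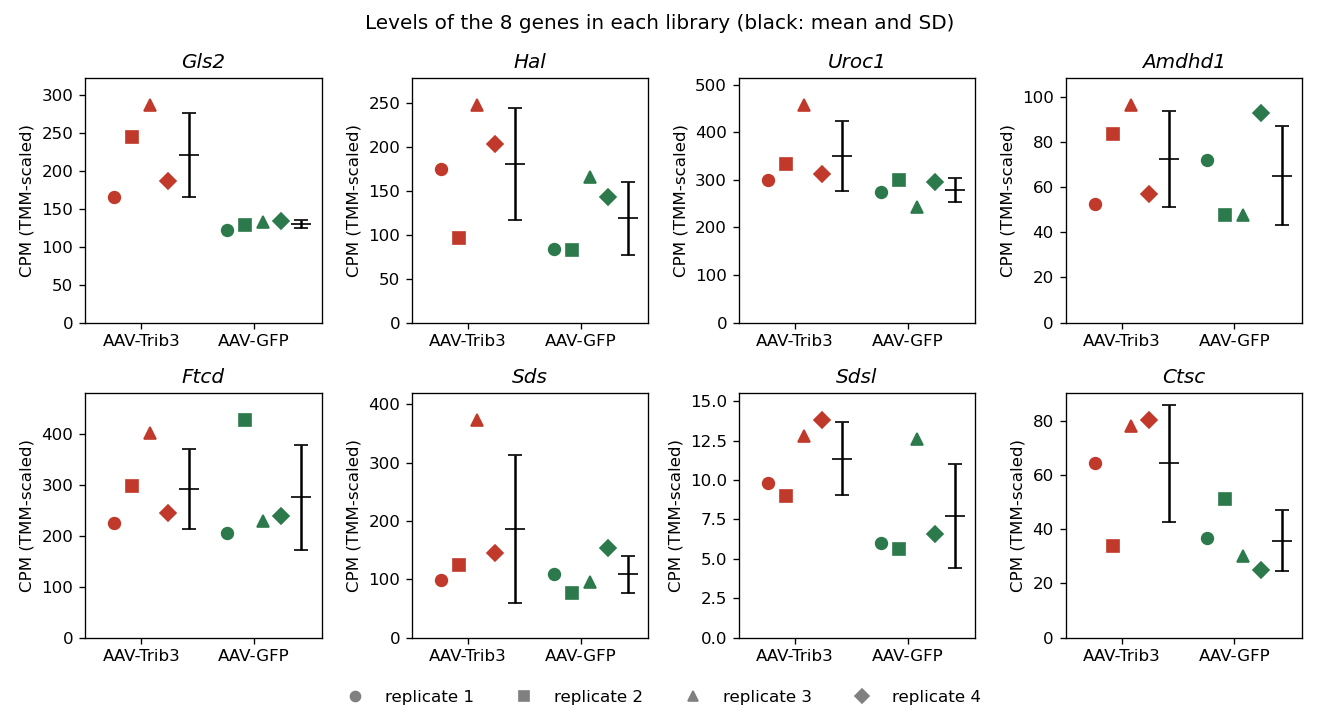
Level of each gene in CPM (scaled by TMM factors; linear axes from 0), with AAV-Trib3 libraries in red on the left and AAV-GFP libraries in green on the right of each panel, one marker shape per replicate number and the group mean with SD in black. The AAV-Trib3 libraries of Gls2 sit between 165 and 287 CPM, above all AAV-GFP libraries at 122 to 134 CPM, and in every other panel the groups overlap.

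Gls2 (ENSMUSG00000044005) lies on the plus strand of chromosome 10, from 128194457 to 128210004 in mm10, and its largest annotated transcript has 18 exons. It had 165, 245, 287 and 186 CPM in AAV-Trib3 replicates 1 to 4, against 122, 129, 132 and 134 CPM in AAV-GFP replicates 1 to 4. Every AAV-Trib3 library thus lay above every AAV-GFP library, and in CPM the AAV-GFP libraries lay close together. The mean was 220.6 ± 55.7 CPM in AAV-Trib3, against 129 ± 5.3 CPM in AAV-GFP, a log2 difference of 0.77 ± 0.18 (SE). Deposited FPKM values, which carry no TMM scaling, did not overlap either, with AAV-Trib3 at 22.9 or more and AAV-GFP at 20.1 or less. The coefficient of variation in CPM was 25.2% in AAV-Trib3, against 4.1% in AAV-GFP, the smallest among the 8 genes in the AAV-GFP group. That closeness did not hold in FPKM, where AAV-GFP had 16.7 ± 3.6, from 11.7 in replicate 2 to 20.1 in replicate 4. The log2 difference was between 0.62 and 0.89 when any 1 library was left out, lowest without AAV-Trib3 replicate 3 and highest without AAV-Trib3 replicate 1. Within AAV-Trib3, Gls2 and Trib3 were both higher in replicates 2 and 3 than in replicates 1 and 4. Uroc1, Amdhd1, Ftcd, albumin and the transaminase Tat showed the same split, so it was not particular to Gls2.

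The gene Spryd4 overlaps Gls2 on the opposite strand, and 1.28% of the 50-base stretches of Gls2 transcripts also occur in it. Spryd4 had 21.3, 15.5, 13.4 and 19.2 CPM in AAV-Trib3 replicates 1 to 4 and 16.7, 14.8, 20.8 and 16.4 CPM in AAV-GFP replicates 1 to 4, so it was lowest where Gls2 was highest.

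Around Gls2, the other genes of glutamine and glutamate handling showed no common direction. Of 17 listed, 16 were tested; 0 were called higher and 0 lower, 0 had an unadjusted p under 0.05, and 6 had a difference above 0 against 10 below. Their median log2 difference was −0.02, between −0.11 and 0.02 with 1 library left out. Glul, the pericentral glutamine synthetase, had 565 ± 264 CPM in AAV-Trib3 libraries and 630.2 ± 91.0 CPM in AAV-GFP libraries; its AAV-Trib3 libraries were spread 3.49-fold from lowest to highest. Glud1, which deaminates the glutamate that Gls2 makes, had 697 ± 23.9 and 699 ± 101 CPM. The glutamine carriers Slc38a3 and Slc38a2 had log2 differences of −0.14 ± 0.23 and −0.09 ± 0.44 (SE), and the alanine transaminase Gpt −0.07 ± 0.25.

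The 4 histidine genes take part in a single linear pathway and sit at 3 places in the genome. Hal (ENSMUSG00000020017, plus strand, 93488768 to 93519304, 20 exons) and Amdhd1 (ENSMUSG00000015890, minus strand, 93523338 to 93540033, 9 exons) are neighbours on chromosome 10. They point towards each other, with 4033 bases between their ends and no other protein-coding gene in that gap. Ftcd (ENSMUSG00000001155, plus strand, 76575648 to 76590338, 14 exons) is elsewhere on chromosome 10, and Uroc1 (ENSMUSG00000034456, plus strand, 90333284 to 90364551, 20 exons) is on chromosome 6. All coordinates are mm10, and the deposited positions of all 8 genes equal those of GENCODE M21. No annotated gene overlaps any of these 4.

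The promoters of the 4 genes are shown because the steps of this pathway are encoded apart and their transcripts varied unlike each other between libraries. Each is the stretch from 250 bases before to 50 bases after the gene's start in RefSeq (GRCm38.p6), written 5′ to 3′ on the gene's strand. Capitals mark, on either strand, TATAAA, the related form of the box with a final G (TATAAG) and the GC box motif GGGCGG. They are chr10:93488518-93488817 (plus) for Hal, chr6:90333039-90333338 (plus) for Uroc1, chr10:93539984-93540283 (minus) for Amdhd1 and chr10:76575398-76575697 (plus) for Ftcd.
Hal: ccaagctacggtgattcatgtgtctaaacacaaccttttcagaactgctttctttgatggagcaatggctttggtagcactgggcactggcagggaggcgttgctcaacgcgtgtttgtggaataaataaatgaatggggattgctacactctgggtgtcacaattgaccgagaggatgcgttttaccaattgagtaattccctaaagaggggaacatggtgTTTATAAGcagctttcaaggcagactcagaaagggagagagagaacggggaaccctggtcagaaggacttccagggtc
Uroc1: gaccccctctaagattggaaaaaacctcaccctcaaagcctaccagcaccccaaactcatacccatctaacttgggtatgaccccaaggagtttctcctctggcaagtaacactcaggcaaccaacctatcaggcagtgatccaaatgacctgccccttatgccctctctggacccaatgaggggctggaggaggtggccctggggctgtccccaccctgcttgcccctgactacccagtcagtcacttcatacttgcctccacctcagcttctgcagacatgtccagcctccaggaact
Amdhd1: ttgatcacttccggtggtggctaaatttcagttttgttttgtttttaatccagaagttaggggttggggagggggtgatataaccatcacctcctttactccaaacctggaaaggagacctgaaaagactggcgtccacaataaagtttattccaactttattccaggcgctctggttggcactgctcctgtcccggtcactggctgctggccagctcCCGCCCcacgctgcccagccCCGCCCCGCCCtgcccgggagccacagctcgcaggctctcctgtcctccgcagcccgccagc
Ftcd: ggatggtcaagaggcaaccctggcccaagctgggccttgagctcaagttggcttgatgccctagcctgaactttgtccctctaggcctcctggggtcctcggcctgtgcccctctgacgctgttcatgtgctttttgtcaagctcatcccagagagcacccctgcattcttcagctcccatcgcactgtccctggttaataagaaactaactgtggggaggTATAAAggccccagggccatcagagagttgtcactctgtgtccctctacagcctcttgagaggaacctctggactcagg

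In Hal, TATAAG began 26 bases before the start and overlapped a TATAAA on the opposite strand. In Ftcd, TATAAA began 29 bases before the start, on the gene's strand. Amdhd1 had 3 GGGCGG on the opposite strand and no TATAAA or TATAAG, and Uroc1 had none of these motifs in its window. Among 32851 promoter windows of the same length, 13.6% held TATAAA, 7.43% TATAAG and 35.7% GGGCGG on either strand. The table of RefSeq promoters used here matched 5 of the 8 genes; the fifth, Ctsc, held 1 GGGCGG. The promoters of Gls2, Sds and Sdsl were not analysed here. These are matches of letters, not measured binding sites.

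Hal, histidine ammonia-lyase, opens the pathway by turning histidine into urocanate. It had 175, 96.0, 249 and 204 CPM in AAV-Trib3 replicates 1 to 4, against 83.8, 82.6, 166 and 143 CPM in AAV-GFP replicates 1 to 4. AAV-Trib3 replicate 2 lay among the AAV-GFP libraries, and the other 3 AAV-Trib3 libraries lay above all of them. The mean was 181 ± 64.1 against 119 ± 42.0 CPM, a log2 difference of 0.61 ± 0.32 (SE) that lay between 0.41 and 0.82 in the fits without 1 library. Both groups were spread 2-fold or more, and AAV-GFP split into a lower and an upper pair of libraries.

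Uroc1, urocanase, carries out the next step. Its level was 299, 333, 458 and 312 CPM in AAV-Trib3 replicates 1 to 4, against 274, 300.2, 244 and 295 CPM in AAV-GFP replicates 1 to 4. AAV-GFP replicate 2 lay just above the lowest AAV-Trib3 library, so the groups overlapped narrowly, and AAV-Trib3 replicate 3 was far above the rest. The log2 difference was 0.33 ± 0.17 (SE), and 0.18 without AAV-Trib3 replicate 3.

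Amdhd1, the imidazolonepropionase that follows Uroc1, did not separate the groups. It had 52.5, 83.6, 96.5 and 56.7 CPM in AAV-Trib3 replicates 1 to 4, against 72.1, 47.4, 47.6 and 93.0 CPM in AAV-GFP replicates 1 to 4. Low and high libraries occurred in both groups. The log2 difference was 0.15 ± 0.27 (SE), and it was −0.02 without AAV-Trib3 replicate 3.

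Ftcd, which passes the formimino group on to tetrahydrofolate and releases ammonia from it, had the smallest difference of the 8 genes. Its level was 224, 297, 401 and 244 CPM in AAV-Trib3 replicates 1 to 4, against 204, 428, 229.7 and 239 CPM in AAV-GFP replicates 1 to 4. AAV-GFP replicate 2, the library rich in mitochondrial transcripts, was the highest of all in CPM, and AAV-Trib3 replicate 3 came next. In FPKM, without TMM scaling, AAV-Trib3 replicate 3 was highest at 102, with AAV-GFP replicate 2 at 78.1 and the other AAV-GFP libraries between 56.1 and 71.8. The log2 difference was 0.08 ± 0.27 (SE), which was 0.39 without AAV-GFP replicate 2, −0.11 without AAV-Trib3 replicate 3 and −0.03 without AAV-GFP replicate 1.

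The balance between the steps was therefore not fixed. Per gene length, Uroc1 stood 2.33, 4.72, 2.51 and 2.09 times as high as Hal in AAV-Trib3 replicates 1 to 4, against 4.45, 4.95, 2.01 and 2.82 times in AAV-GFP replicates 1 to 4. The ratio overlapped between the groups, being above 4 in AAV-Trib3 replicate 2 and in AAV-GFP replicates 1 and 2. The ratio of Ftcd to Amdhd1 was 2.70, 2.25, 2.63 and 2.72 in AAV-Trib3 replicates 1 to 4, against 1.79, 5.71, 3.05 and 1.62 in AAV-GFP replicates 1 to 4. It was even in AAV-Trib3 and spread in AAV-GFP, with its peak in AAV-GFP replicate 2. The neighbours Hal and Amdhd1 did not vary together: in AAV-GFP replicate 3 Hal was highest of its group while Amdhd1 was near the lowest, at 166 and 47.6 CPM.

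**Figure D2:**
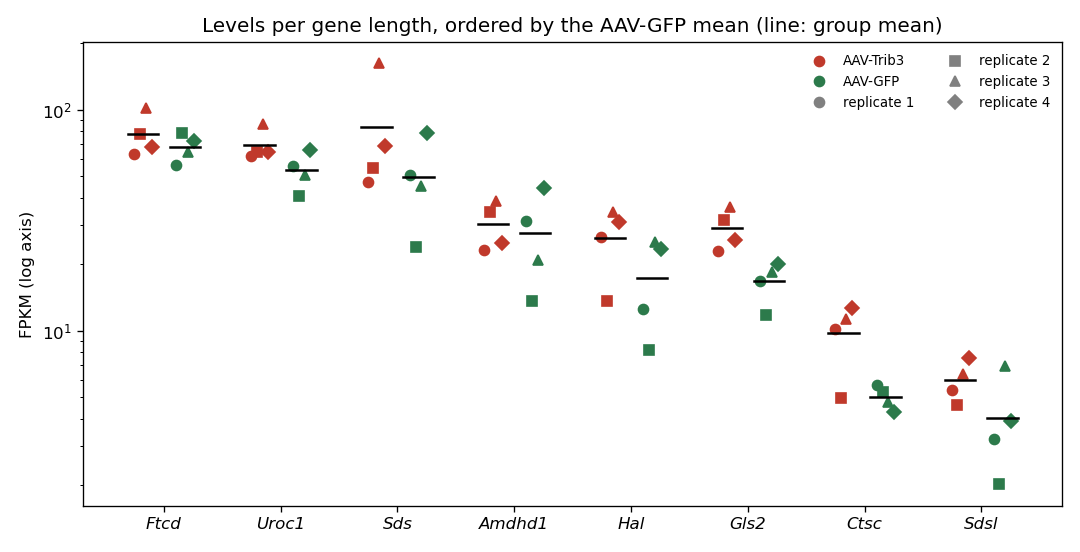
Level of each gene in deposited FPKM (log axis), ordered by the AAV-GFP mean, with AAV-Trib3 in red left of AAV-GFP in green, marker shapes for replicate numbers and a black line at each group mean. Ftcd, Uroc1 and Sds are highest, with group means between 49.5 and 83.0 FPKM, and Ctsc and Sdsl are lowest, with group means between 4.02 and 9.79 FPKM.

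Per gene length, the 8 genes had much the same order of levels in both groups. In deposited FPKM (fragments scaled by gene length and library size, without TMM scaling) the AAV-Trib3 means ran from Sds (83.0 ± 53.1), Ftcd (77.3 ± 17.4) and Uroc1 (69.2 ± 11.5) to Amdhd1 (30.3 ± 7.5), Gls2 (29.2 ± 6.0), Hal (26.4 ± 9.1), Ctsc (9.79 ± 3.36) and Sdsl (5.98 ± 1.28). In AAV-GFP they ran from Ftcd (67.5 ± 9.6), Uroc1 (53.2 ± 10.5) and Sds (49.5 ± 22.3) to Amdhd1 (27.5 ± 13.3), Hal (17.3 ± 8.2), Gls2 (16.7 ± 3.6), Ctsc (5.01 ± 0.62) and Sdsl (4.02 ± 2.08). In AAV-Trib3 the ranges of neighbours did not overlap between Uroc1 and Amdhd1 and between Hal and Ctsc, and in AAV-GFP between Gls2 and Ctsc. All other neighbours in these orders overlapped. Ftcd nevertheless exceeded Uroc1 within 4 of 4 AAV-Trib3 and 4 of 4 AAV-GFP libraries.

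Other histidine genes, of decarboxylation, dipeptides, transport and tRNA charging, showed no common direction. Of 9 listed, 6 were tested; 0 were called higher and 0 lower, 3 had a difference above 0 and 3 below, and the median log2 difference was 0.02, between −0.01 and 0.09 with 1 library left out. An unadjusted p under 0.05 was reached by 1, the histamine methyltransferase Hnmt, at 26.7 ± 6.1 CPM in AAV-Trib3 libraries and 19.2 ± 3.4 CPM in AAV-GFP libraries, and its adjusted p in edgeR was 1. It is named after its value was seen, and 3.14% of all genes tested had an unadjusted p under 0.05 in edgeR. Cndp2, which splits dipeptides such as carnosine, had 21.95 ± 1.88 and 24.6 ± 3.8 CPM, and Slc15a4, a lysosomal carrier of histidine, 17.5 ± 6.6 and 14.9 ± 5.7 CPM. Hdc, the histidine decarboxylase that makes histamine, was too low to be tested, with at most 27 counts in any library.

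The folate genes that take up the carbon from Ftcd were tested for 13 of 14 listed. Again 0 were called higher and 0 lower, 9 had a difference above 0 and 4 below, and the median log2 difference was 0.11, or 0.03 without AAV-Trib3 replicate 3, 0.04 without AAV-GFP replicate 3 and 0.07 without AAV-GFP replicate 1. Mthfs, which acts on formyltetrahydrofolate, was the 1 gene with an unadjusted p under 0.05 and with groups that did not overlap, beside 3.14% and 2.29% of all genes tested. It had 7.86, 7.99, 8.23 and 7.16 CPM in AAV-Trib3 replicates 1 to 4, against 5.95, 5.72, 4.91 and 6.71 CPM in AAV-GFP replicates 1 to 4, and an edgeR adjusted p of 1. Mthfd1 and Aldh1l1, which convert the folate carbon units further, had log2 differences of 0.05 ± 0.14 and 0.13 ± 0.19 (SE).

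The serine genes Sds and Sdsl are neighbours on chromosome 5 that point away from each other. Sdsl (ENSMUSG00000029596) runs on the minus strand from 120458186 to 120472810 and Sds (ENSMUSG00000029597) on the plus strand from 120476526 to 120483932 in mm10, each with up to 9 exons, and 3715 bases lie between their starts. No 50-base stretch of Sdsl transcripts occurs in those of another gene, Sds included. Of the stretches of Sds, 21.2% also occur in Plbd2 or in the antisense transcript Gm15690, which overlap it on the opposite strand, and the protocol names no step that keeps strand.

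Sds, serine dehydratase, is an enzyme of gluconeogenesis from serine that is known to be induced in liver by glucagon and by protein feeding. It had 99.5, 124, 374 and 145 CPM in AAV-Trib3 replicates 1 to 4, against 108, 77.2, 95.2 and 153 CPM in AAV-GFP replicates 1 to 4. AAV-Trib3 replicate 3 alone exceeded the AAV-GFP libraries, and the other 3 AAV-Trib3 libraries lay within their range. The mean was 186 ± 127 against 108 ± 32.3 CPM, and the log2 difference of 0.77 ± 0.41 (SE) was 0.18 without AAV-Trib3 replicate 3. Plbd2 had 67.2, 58.9, 63.7 and 66.0 CPM in AAV-Trib3 replicates 1 to 4 and between 48.8 and 80.1 CPM in AAV-GFP, so it did not peak in AAV-Trib3 replicate 3. Gm15690 had at most 1 count in any library.

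Sdsl, the paralog of Sds, was lower than Sds in every library. It had 9.81, 9.02, 12.8 and 13.8 CPM in AAV-Trib3 replicates 1 to 4, against 6.04, 5.62, 12.6 and 6.59 CPM in AAV-GFP replicates 1 to 4. The AAV-Trib3 libraries lay above 3 of the AAV-GFP libraries, and AAV-GFP replicate 3 lay among them. The log2 difference of 0.55 ± 0.28 (SE) rested on 123 to 205 counts per AAV-Trib3 library and 56 to 175 per AAV-GFP library, and was 0.90 without AAV-GFP replicate 3. In FPKM, Sds exceeded Sdsl 8.79-fold, 11.9-fold, 25.3-fold and 9.08-fold in AAV-Trib3 replicates 1 to 4, against 15.5-fold, 11.9-fold, 6.52-fold and 20.1-fold in AAV-GFP replicates 1 to 4. That ratio overlapped between the groups. It ran from 6.52-fold to 25.3-fold over the libraries, so the neighbours did not keep a common proportion.

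Among other genes of serine, threonine and glycine, 14 of 17 were tested, 0 were called higher and 0 lower, and 0 had an unadjusted p under 0.05. Differences were above 0 for 7 and below 0 for 7, with a median log2 difference of −0.01, between −0.05 and 0.04 with 1 library left out. The serine hydroxymethyltransferases Shmt1 and Shmt2 had log2 differences of 0.21 ± 0.18 and −0.04 ± 0.18 (SE), the serine racemase Srr −0.33 ± 0.25 and the transaminase Agxt 0.21 ± 0.24. Gldc, the decarboxylase of the glycine cleavage system, had 103, 67.4, 177 and 92.9 CPM in AAV-Trib3 replicates 1 to 4, against 55.0, 55.3, 122 and 70.9 CPM in AAV-GFP replicates 1 to 4. Like Hal, it was highest of its group in AAV-Trib3 replicate 3 and in AAV-GFP replicate 3. Of the enzymes of serine synthesis, Psph had a log2 difference of −0.12 ± 0.27 (SE), and Psat1 and Phgdh were too low to be tested, with at most 19 and 3 counts in any library.

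Ctsc (ENSMUSG00000030560) lies on the plus strand of chromosome 7, from 88278085 to 88310888 in mm10, with up to 7 exons. It had 64.6, 33.8, 78.1 and 80.4 CPM in AAV-Trib3 replicates 1 to 4, against 36.5, 51.1, 30.2 and 25.1 CPM in AAV-GFP replicates 1 to 4. Here AAV-Trib3 replicate 2 lay within the AAV-GFP range, and replicates 1, 3 and 4 lay above it. The log2 difference was 0.85 ± 0.30 (SE), between 0.70 and 1.08 when any 1 library was left out.

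Ctsc is also a gene of leukocytes. Summed over 12 macrophage and Kupffer cell markers, 11 of them tested, the level was 104.64, 12.1, 24.2 and 68.8 CPM in AAV-Trib3 replicates 1 to 4, against 12.7, 84.7, 9.10 and 77.8 CPM in AAV-GFP replicates 1 to 4. None of the 12 was at 0 in all libraries, though Marco was at 0 in AAV-Trib3 replicate 2 and Timd4 in AAV-Trib3 replicate 2 and AAV-GFP replicate 2. AAV-Trib3 replicates 1 and 4 were high in both, and AAV-GFP replicate 2 was the highest of its group in both. AAV-Trib3 replicate 3 combined 78.1 CPM of Ctsc with 24.2 CPM of markers, and AAV-GFP replicate 4 combined 25.1 CPM with 77.8 CPM. With the mean log2 CPM of the 11 tested markers as a covariate, the log2 difference of Ctsc was 0.77 ± 0.29 (SE), against 0.85 ± 0.30 without it. The part of macrophages in the level of Ctsc was not tested. Markers of neutrophils and their granule proteases summed to 7.25, 0.22, 1.14 and 6.75 CPM in AAV-Trib3 replicates 1 to 4, against 2.18, 1.21, 0.58 and 1.28 CPM in AAV-GFP replicates 1 to 4. Of the 9 listed, Ctsg alone was at 0 in all 8 libraries, and none was abundant enough to be tested. The part of neutrophils in the level of Ctsc was not tested.

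**Figure D3:**
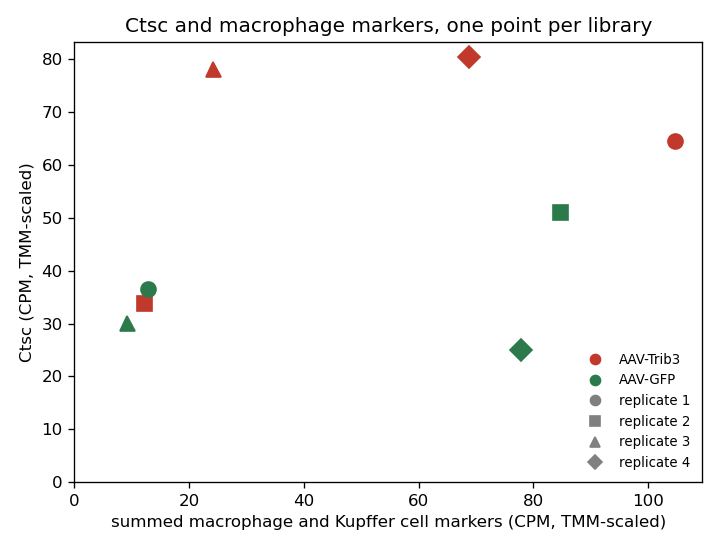
Ctsc (CPM, vertical axis) against the summed level of 12 macrophage and Kupffer cell markers (CPM, horizontal axis), one point per library, AAV-Trib3 in red and AAV-GFP in green with a marker shape per replicate number. AAV-Trib3 replicates 1 and 4 lie high on both axes. AAV-Trib3 replicate 3 lies high at 78.1 CPM with 24.2 CPM of markers, and AAV-GFP replicate 4 lies low at 25.1 CPM with 77.8 CPM of markers.

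Other lysosomal proteases and their inhibitors showed no common direction. Among 13 listed cathepsins, legumain and cystatins, 12 were tested, 0 were called higher and 0 lower, 0 had an unadjusted p under 0.05, and 5 had a difference above 0 against 7 below. Their median log2 difference was −0.05, with either sign when 1 library was left out (0.16 without AAV-GFP replicate 2, −0.14 without AAV-GFP replicate 3). Ctsb had 403 ± 34 CPM in AAV-Trib3 libraries and 408 ± 115 CPM in AAV-GFP libraries, and Ctsl 494 ± 83 and 474 ± 93 CPM. Ctsh had 217 ± 13 and 216 ± 87 CPM and Ctsz 193 ± 10.4 and 203 ± 83 CPM. Ctss, a cathepsin of antigen-presenting cells, had 4.72 ± 3.78 and 3.91 ± 2.86 CPM, and the inhibitor Cst3 63.7 ± 8.4 and 68.3 ± 23.0 CPM.

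Other periportal genes were compared as the surroundings of the 7 enzymes. Of 14 listed and tested, 0 were called higher and 0 lower, 12 had a difference above 0 and 2 below, and the median log2 difference was 0.34, or 0.11 without AAV-Trib3 replicate 3. The list was chosen with earlier results known and is no independent evidence of its direction. Cyp2f2, a periportal cytochrome P450, had 1416 ± 582 CPM in AAV-Trib3 libraries and 940 ± 215 CPM in AAV-GFP libraries, and Arg1, the arginase that releases urea, 1118 ± 152 and 877 ± 214 CPM. Aldh1b1, an aldehyde dehydrogenase named after its value was seen, was the 1 gene with an unadjusted p under 0.05, at 36.3, 17.9, 78.4 and 49.7 CPM in AAV-Trib3 replicates 1 to 4, against 16.7, 25.5, 13.9 and 26.1 CPM in AAV-GFP replicates 1 to 4. Its AAV-Trib3 libraries had their peak in replicate 3, as Gls2 and Sds did, and its edgeR adjusted p was 1. Of all genes tested, 3.14% had an unadjusted p under 0.05 in edgeR.

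Pericentral genes mostly had differences below 0, beside 47.9% of all genes tested with a difference above 0. This list too was chosen with earlier results known and is no independent evidence of its direction. All 13 listed genes were tested, 0 were called higher and 0 lower, 1 had a difference above 0 and 12 below, and the median log2 difference was −0.31, or −0.15 without AAV-GFP replicate 2. Cyp1a2, a drug-metabolising P450 named after its value was seen, had groups that did not overlap, at 569 ± 30.0 CPM in AAV-Trib3 libraries and 830.0 ± 191 CPM in AAV-GFP libraries, and was the 1 gene with an unadjusted p under 0.05, its edgeR adjusted p being 1. Over all genes tested, 2.29% had groups that did not overlap and 3.14% an unadjusted p under 0.05 in edgeR. Genes of the glucagon and glucocorticoid response were tested for 18 of 18, with 0 called higher, 0 lower and 0 at an unadjusted p under 0.05. Differences were above 0 for 12 and below 0 for 6, with a median log2 difference of 0.11, between −0.05 without AAV-Trib3 replicate 3 and 0.20 without AAV-Trib3 replicate 4. Pck1 and Tat, which hormones of fasting induce, had 3593 ± 1745 against 2849 ± 696 CPM and 2787 ± 1448 against 2091 ± 614 CPM, both highest in AAV-Trib3 replicate 3 at 5953 and 4668 CPM. Klf15, a factor that drives amino acid breakdown, had a log2 difference of 0.14 ± 0.28 (SE), and the glucagon receptor Gcgr −0.31 ± 0.30.

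**Figure D4:**
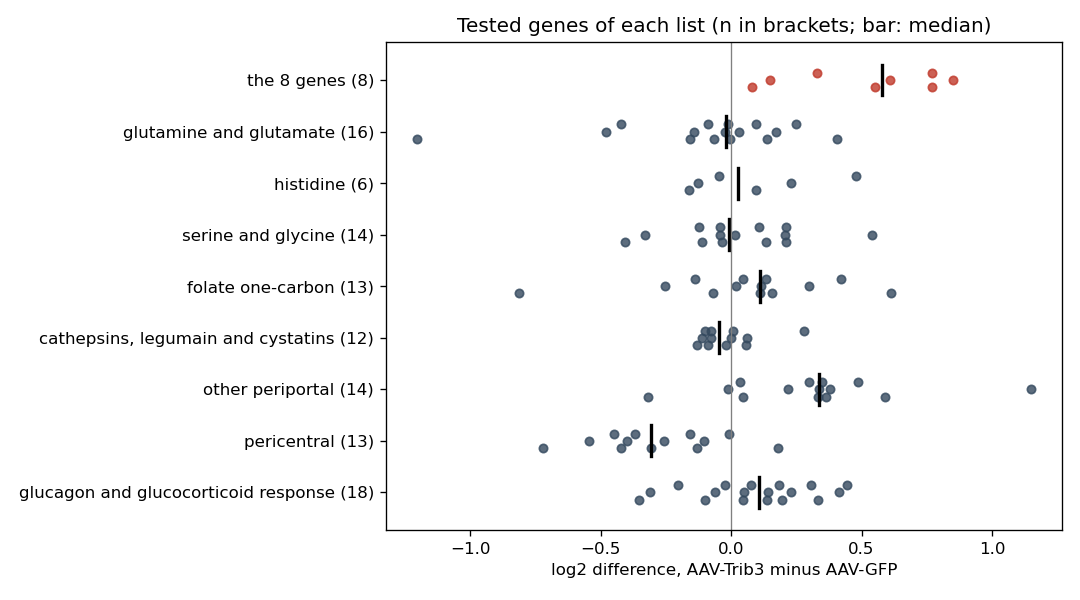
Log2 difference, AAV-Trib3 minus AAV-GFP, of every tested gene in each list (horizontal axis), with the number of genes in brackets and a black bar at the list median. The 8 genes in red lie between 0.08 and 0.85, the other periportal genes have a median of 0.34, and the glutamine, histidine and serine lists centre near 0.

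How far the differences hung on single libraries varied between the genes. Leaving out AAV-Trib3 replicate 3 gave the lowest difference for 6 of the 8, all but Sdsl and Ctsc. The difference stayed above 0 in each of the 8 left-out fits for Gls2, Hal, Uroc1, Sds, Sdsl and Ctsc, and not for Amdhd1 and Ftcd. Without AAV-GFP replicate 2 the log2 differences were 0.78 for Gls2, 0.48 for Hal, 0.38 for Uroc1, 0.04 for Amdhd1, 0.39 for Ftcd, 0.65 for Sds, 0.44 for Sdsl and 1.08 for Ctsc.

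**Figure D5:**
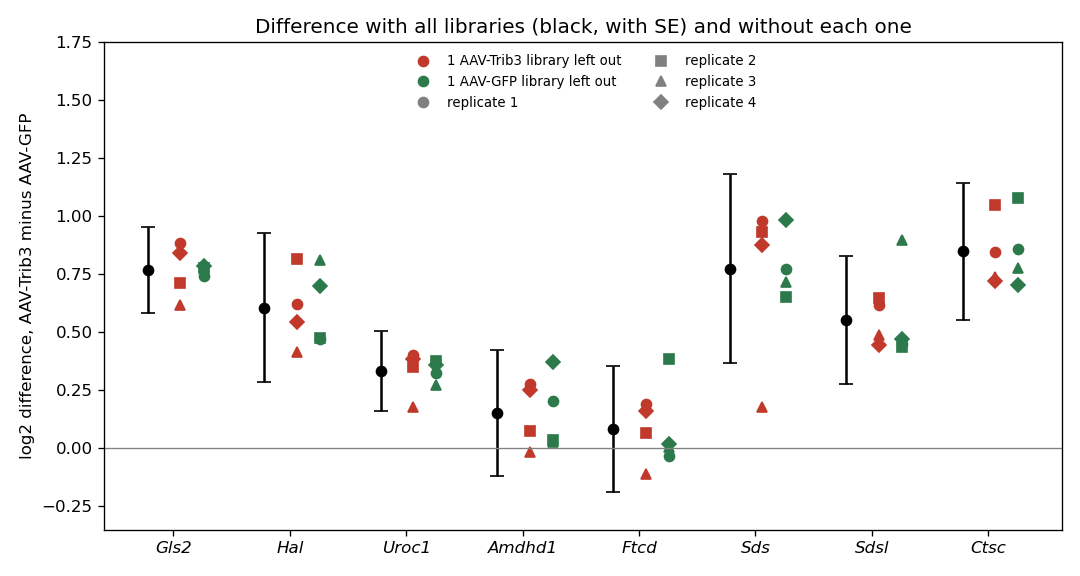
Log2 difference, AAV-Trib3 minus AAV-GFP, of each gene with all libraries (black, with its standard error) and without each library in turn (red: an AAV-Trib3 library left out; green: an AAV-GFP library left out; the shape gives its replicate number). Sds drops by most, to 0.18 without AAV-Trib3 replicate 3, and Amdhd1 and Ftcd cross 0.

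The genes whose levels varied most like each of the 8 were sought among 7045 other genes with a mean log2 CPM of at least 3. Likeness was the root mean square difference in log2 CPM over the 8 libraries after subtracting each gene's own mean, so 0 means the same pattern. This measure takes in the difference between the groups as well as the spread within them. Gls2, whose own spread was 0.43, was closest to Lama3, a laminin chain (0.19). Hal, with a spread of 0.57, was closest to Gldc and Gm3839 (both 0.24). Sds, with a spread of 0.65, was closest to Etnppl, a phospholyase of phosphoethanolamine (0.29), and to Gas2 (0.33). Etnppl had 104, 66.5, 352 and 92.6 CPM in AAV-Trib3 replicates 1 to 4, against 76.8, 54.6, 59.4 and 107 CPM in AAV-GFP replicates 1 to 4, and shared with Sds its single high library. Ftcd was closest to Gm8893 (0.09) and to albumin, Alb (0.10), which stood at 107630 CPM in AAV-GFP replicate 2 (Alb).

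Uroc1 was closest to the enolase Eno1 (0.09) and Banf1 (0.10), Amdhd1 to the splicing factor Tra2a (0.11) and Fgd6 (0.14), Sdsl to Mospd1 (0.21) and Coa6 (0.22), and Ctsc to the sulfotransferase Tpst2 (0.22) and Gm4956 (0.23). Among the 8 genes themselves the closest pairs were Gls2 with Uroc1 (0.25), Uroc1 with Ftcd (0.28) and Hal with Sdsl (0.31), and the most distant pair was Amdhd1 with Ctsc (0.78). The own spread of Uroc1 was 0.25, so Gls2 and Ftcd were no closer to it than a gene that did not vary. Set among the 7045 other genes, the nearest of the 8 ranked 6 for Hal and 8 for Gls2, but 418 for Amdhd1, 450 for Ftcd and 888 for Uroc1. Consecutive steps of histidine breakdown differed by 0.51 for Hal with Uroc1, 0.32 for Uroc1 with Amdhd1 and 0.52 for Amdhd1 with Ftcd. The neighbours Hal and Amdhd1 differed by 0.65 and Sds and Sdsl by 0.61.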

How the data were processed

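Per the labels' protocols, RNA was treated with DNase, enriched on oligo(dT) beads, fragmented and made into double-stranded cDNA libraries. Sample titles gave the groups, the replicate numbers 1 to 4 and the codes that tie table columns to samples. Per the file headers, the deposited table holds a gene count and an FPKM value for each library. The deposited counts, whole and not normalised, entered the fits; the deposited FPKM served to compare levels between genes. Per the submitters' processing notes, reads were trimmed with Trimmomatic and the build was mm10; for the aligner, the counting program and the annotation, nothing is given in the sources used here. Total counts ran from 11350442 to 15361128.

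Genes were filtered with filterByExpr, which kept 11036, scaled with TMM and fitted with edgeR 4.0.16 (glmQLFit with robust estimation, glmQLFTest, no covariate, Benjamini-Hochberg adjustment, threshold 0.05) in R 4.3.3. Standard errors were derived from the log2 fold change and the F statistic. The fit was tested on simulated data. The 17 alternatives were another scaling (DESeq2 size factors, library size alone, mitochondrial genes removed), another test (DESeq2 1.42.0, limma-voom in limma 3.58.1), another low-count filter, the replicate number as a block, a macrophage covariate and each library left out. Shared sequence was counted as stretches of 50 bases in GENCODE M21 transcripts, on both strands. The genes, the 8 pathway lists and the 7 marker lists were chosen with earlier results of these data known. Named besides the 8 genes and Trib3 were partners chosen by role, any list gene past the threshold, and the 2 genes most like each of the 8. A few genes under this rule are not reported here. Over all genes, same-numbered libraries did not deviate together from their group means (correlations from −0.267 to −0.0319), so no pairing by number was seen. That does not exclude it for single genes. With the replicate number as a block, the SE fell for some of the 8 genes (Hal, 0.32 to 0.19) and rose for others (Ctsc, 0.30 to 0.37). Within a group, libraries differed far beyond sampling noise (chi-square per degree of freedom from 15.6 to 189), so all were kept as separate.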

Additional observations from a re-analysis of the deposited data

Results flagged for a closer look

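In 7 of 86 sets of 4 libraries, the highest library lay further from the rest than Dixon's critical ratio of gap to range allows. Chance gives about 1 in 20 such sets. Among the 8 genes these were Ftcd in AAV-GFP replicate 2, at 428 CPM with the others between 204 and 239 CPM; Sds in AAV-Trib3 replicate 3, at 374 CPM with the others between 99.5 and 145 CPM; and Sdsl in AAV-GFP replicate 3, at 12.6 CPM with the others between 5.62 and 6.59 CPM.

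Among the partner genes, AAV-GFP replicate 2 was far above the other AAV-GFP libraries for Cyp2f2 (1262 CPM, others 815 to 842), Ctsz (327 CPM, others 155 to 172) and Cst3 (102 CPM, others 52.1 to 60.4). The same held for Hdc in AAV-GFP replicate 4, at 1.65 CPM with the others between 0.22 and 0.34 CPM. AAV-GFP replicate 2 is the library with the TMM factor of 0.6995, which raises its CPM. In FPKM, without that scaling, its Cyp2f2 (391.6) lay within the other AAV-GFP libraries (380.25 to 428.9), and its Ctsz (159, others 116 to 127) and Cst3 (35.9, others 30.1 to 31.8) stayed above them.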

How the results depend on the processing

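Of 136 log2 differences of the 8 genes under the 17 alternatives, all stayed within 1 SD between libraries of the value given, 133 were above 0, and 3 were not: Amdhd1 without AAV-Trib3 replicate 3, and Ftcd without that library or AAV-GFP replicate 1. Leaving out 1 of 4 libraries can hardly move a single gene by more than that SD, so staying within it is no sign of stability. Sds stayed within it while falling from 0.77 to 0.18 without AAV-Trib3 replicate 3. The median of the 8 was 0.58 to 0.61 under other scalings, tests, filters and covariates, and 0.30 to 0.75 with 1 library left out, lowest without AAV-Trib3 replicate 3. edgeR called 0 genes; DESeq2's Wald test called 17 (7 higher, 10 lower), with Trib3 and Gls2 among those higher, and edgeR with the macrophage covariate 2 (1 higher, 1 lower), Trib3 and Cyp2c40. With 1 library left out, edgeR called 0 to 3 genes, 0 to 2 higher and 0 to 1 lower: Trib3 without AAV-Trib3 replicate 4, Gm16286 without AAV-GFP replicate 1, and Phc3, Hnrnpf and Hist2h2aa1 without AAV-GFP replicate 3. No gene of the 8 pathway lists, which leave out the 8 genes themselves, was called under any of the 17 alternatives; medians of 3 lists moved by more than 1 SD between libraries, the folate and other periportal ones without AAV-Trib3 replicate 3 and the histidine one to 0.10 with the stricter filter. With the replicate block, edgeR called 0 genes and the median of the 8 was 0.60; no library correlated best with the one of its own number. Depth limits Sdsl most, which had 56 to 205 counts per library.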

Other observations

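Other cell types marked by the lists varied between libraries in ways the groups did not share. Cholangiocyte markers summed to 14.9, 7.11, 28.1 and 21.9 CPM in AAV-Trib3 replicates 1 to 4, against 9.81, 10.1, 7.80 and 10.9 CPM in AAV-GFP replicates 1 to 4, with Cftr at 0 in all libraries. The highest sum was in AAV-Trib3 replicate 3, the library with the highest Gls2, Hal, Uroc1, Amdhd1 and Sds; the part of these cells in those levels was not tested. Stellate cell markers, which include collagen and decorin genes, summed to 11.9 to 15.9 CPM in AAV-Trib3 and 3.47 to 26.0 CPM in AAV-GFP. Albumin stood at 48638 to 84283 CPM in AAV-Trib3, highest in replicate 3, and at 50129 to 107630 CPM in AAV-GFP, highest in replicate 2, which are the libraries with the highest Ftcd of their groups.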
